A study of Saccharomyces cerevisiae with 19 samples.

Results

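The genes described here encode the vacuolar proton ATPase, or V-ATPase, of budding yeast (Saccharomyces cerevisiae): VMA1, VMA2, VMA4, VMA5, VMA6, VMA7, VMA8, VMA10, VMA13 and VPH1. These 10 members were taken from a list of subunit genes by their symbol in the array annotation, out of 5449 genes tested, and each was read by 1 probe set. Of the 10, 8 encode subunits of the V1 part and 2 encode subunits of the V0 part. The labelled sch9 mutant, a long-lived strain described by the submitters as deleted for the nutrient-signalling kinase SCH9, was set against the wild type in a culture time course. The mutant had 9 arrays, at 12, 24, 36, 48, 60, 72, 84, 96 and 108 h, and the wild type had 10, at the same times and at 120 h. Both strains were grown with shaking in SDC, a synthetic medium, from diluted overnight cultures, and no other agent was added. The sources used here do not give the strain background, the marker of the deletion or any further allele. The mutant array at 120 h, which the submitters set aside for its quality, was not analysed here.

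The V-ATPase is a rotary pump that spends ATP to move protons into the vacuole and other organelles. In the V1 part, which lies in the cytosol, the A and B subunits bind and split ATP around a central stalk, while peripheral stalks hold the ring in place. The V0 part sits in the membrane and carries the protons through its ring of c subunits and its a subunit. In yeast V1 comes off V0 when glucose is short and goes back on when glucose returns. The acidity that the pump sets up drives the storage of amino acids and metals in the vacuole and keeps its hydrolases active.

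Every level below is a quantile-normalized log2 signal, every difference is on the log2 scale as sch9 mutant minus wild type, and a gene was called at a limma adjusted p under 0.05. Each time point was 1 array of 1 culture sample, so p-values measure the spread over time points and not over separate cultures. The arrays read RNA of whole cultures, in which fewer cells of a kind and less RNA per cell cannot be told apart. SCH9 differed by -0.52 ± 0.39 (SD, n = 9 times, exact permutation p = 0.00781), with levels of 10.07 to 10.59 in the sch9 mutant and 10.43 to 11.26 in the wild type. The place of its probe set relative to the deletion is not stated in those sources, so its signal does not check the label. URA3, a common deletion marker, was 1.78 ± 0.36 higher in the sch9 mutant (SD, n = 9 times, exact permutation p = 0.00391). As deposited, 18S ribosomal RNA read by its 3' probe set lay at 6.69 to 7.68 in the sch9 mutant and at 8.03 to 14.64 in the wild type. An end-bias score, the mean excess of 3' over 5' signal in 10 control pairs, was 0.73 to 1.06 in the sch9 mutant and 0.80 to 1.44 in the wild type, where its extremes were at 12 and 120 h. The part of either in the results below was not tested beyond the fits that hold this score as a covariate. The mean level of 6 mating type a marker genes was 8.09 to 8.56 in the sch9 mutant and 7.94 to 8.51 in the wild type. For 4 mating type alpha genes it was 9.22 to 12.78 in the sch9 mutant and 10.73 to 12.52 in the wild type, and for 10 meiosis and sporulation genes it was 7.92 to 8.87 in the sch9 mutant and 8.15 to 8.70 in the wild type.

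The members shared a high level at 12 h, the earliest time measured. In 9 of the 10 the 12 h array was the highest of its strain in both strains, while 29.1% of all genes had that pattern. The exception was VMA6, which was highest at 12 h in the sch9 mutant and at 36 h in the wild type. The level at 12 h stood above the mean of the later times by a median of 0.79 over the members in the sch9 mutant, where the median over all genes was 0.05. The same step in the wild type had a median of 0.64 over the members and 0.08 over all genes. The count depends on the scaling: it was 9 with cyclic loess and 8 with median centring, but 3 in the values as deposited. In those values array medians still differed (9.84 to 10.07 in the sch9 mutant and 9.46 to 10.03 in the wild type). The share of all genes, 29.1%, was counted with quantile normalization only. The counts under the other scalings thus have no share of all genes to set beside them.

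The step was not of one size. Among the mutant steps it was smallest for VMA4, at 0.48, and largest for VMA5, at 1.29, which is a 2.45-fold higher signal at 12 h. Among the wild-type steps it was smallest for VMA6, at 0.15, and largest for VMA8, at 1.33 or 2.52-fold. VMA10 had a step of 0.84 in the sch9 mutant and 0.28 in the wild type, and VMA7 had 1.01 in the sch9 mutant and 0.58 in the wild type. VMA2, VMA4 and VMA8 went the other way with this scaling. Their steps were 0.60, 0.48 and 0.84 in the sch9 mutant and 1.16, 0.66 and 1.33 in the wild type. These steps rest on 1 array per strain, so they carry no test. In the sch9 mutant the median step was 0.82 in the deposited values, with 10 of 10 members above 0. In the wild type it was 0.14, with 8 above 0 and 2 below. The deposited wild-type steps were -0.22 for VMA10, -0.25 for VMA6 and 0.17 for VMA7. VMA2 had 0.69 in the sch9 mutant and 0.62 in the wild type there, and VMA4 had 0.52 and 0.17, so their order of the strains turned. VMA8 kept its order, with 0.85 in the sch9 mutant and 1.01 in the wild type.

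**Figure D1:**
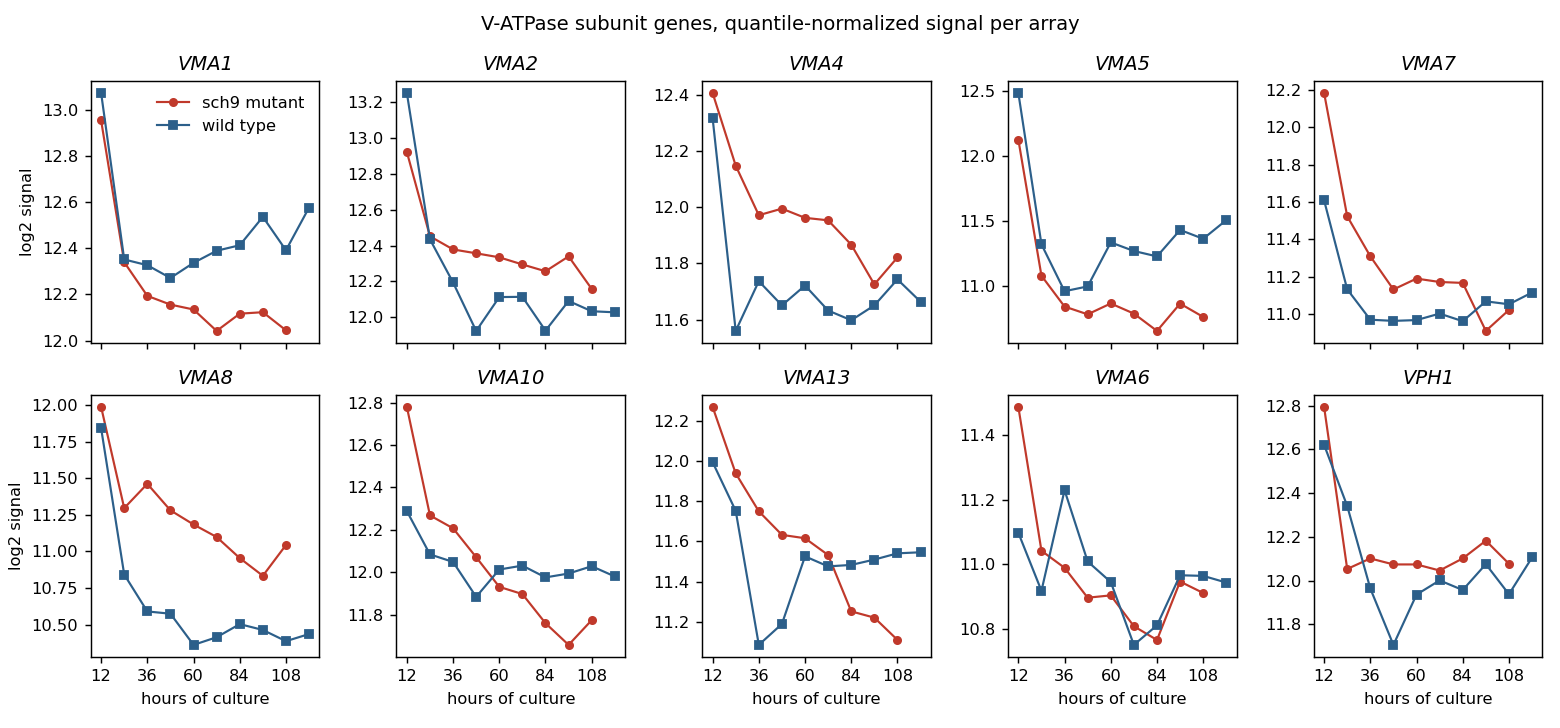
Quantile-normalized log2 signal (y axis, its own range in each panel) against hours of culture (x axis) for the 10 V-ATPase genes, with 1 point per array, in the sch9 mutant (red circles) and the wild type (blue squares). The 12 h point is the highest of both strains in every panel but VMA6, the mutant curve of VMA8 lies above the wild type at all 9 shared times, and that of VMA5 lies below it; in the deposited values 3 members, not 9, were highest at 12 h in both strains.

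The first comparison set the pump genes of the strains side by side at each shared time. Of the members, 3 were called higher in the sch9 mutant (VMA4, VMA7 and VMA8), where 32.4% of all genes were called higher. Another 2 were called lower (VMA1 and VMA5), where 26.8% of all genes were called lower. VMA4 and VMA8 were higher at all 9 times, which held for 17.1% of all genes, and VMA1 and VMA5 were lower at all 9, which held for 11.3%. The members' shares were thus near those of all genes, and their median difference was 0.10 against 0.03 for all genes. All the members that were called belong to V1, which holds 8 of the 10, and neither V0 member was called or had an unadjusted p under 0.05. This does not set V0 apart from V1. Of the 6 other V0 genes 3 were called higher and 1 lower, and VPH1 was called under other scalings, as described below.

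VMA8 encodes the D subunit of the central stalk, the shaft that turns inside the V1 ring. Its level in the sch9 mutant was 10.83 at its lowest, 11.18 at the median and 11.99 at its highest, and in the wild type it was 10.36, 10.48 and 11.84 on the same measures. From 24 h on the mutant arrays spanned 10.83 to 11.46 and the wild-type arrays 10.36 to 10.84, so the strains met at 1 pair of values. The difference was 0.57 (SE 0.08, adjusted p = 0.000136), or 1.49-fold, and it was positive at 9 of 9 times. It ranged from 0.15 at 12 h to 0.87 at 36 h. It was called in each of the 20 alternatives run, with values of 0.40 to 0.65.

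VMA5 encodes the C subunit, which ties the peripheral stalks to V0 and leaves the complex when V1 and V0 separate. Its level was 10.65 at its lowest, 10.84 at the median and 12.12 at its highest in the sch9 mutant, against 10.96, 11.33 and 12.48 in the wild type. The sch9 mutant was lower at 9 of 9 times, although its values from 24 h on (10.65 to 11.08) overlapped those of the wild type (10.96 to 11.50). The difference was -0.40 (SE 0.07, adjusted p = 0.000427), a ratio of 0.757, and it lay between -0.60 and -0.12 over the times. Of 20 alternatives 19 kept the call, and the fit without time blocks did not.

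VMA1 encodes the catalytic A subunit, which splits ATP. It had 12.04, 12.13 and 12.95 as lowest, median and highest level in the sch9 mutant, against 12.27, 12.39 and 13.07 in the wild type. It was lower in the sch9 mutant at all 9 times, but by no more than 0.41. The difference was -0.22 (SE 0.06, adjusted p = 0.00768). With cyclic loess it was -0.14 (adjusted p = 0.0644) and with the end-bias score as a covariate -0.11 (adjusted p = 0.143). From 12 to 72 h it was -0.15 (adjusted p = 0.147), and with every other time and without time blocks it was -0.22 (adjusted p = 0.0853 and 0.164), so 15 of 20 alternatives kept the call.

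VMA4 encodes the E subunit of the peripheral stalk. Its level was 11.73, 11.96 and 12.41 (lowest, median, highest) in the sch9 mutant, against 11.56, 11.66 and 12.32 in the wild type. The sch9 mutant was higher at 9 of 9 times, most at 24 h, by 0.59. The difference was 0.25 (SE 0.06, adjusted p = 0.00628) with quantile normalization, 0.14 (adjusted p = 0.282) as deposited and -0.12 (adjusted p = 0.424) after median centring, which turned its sign.

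VMA7 encodes the F subunit of the central stalk. It lay at 10.91, 11.17 and 12.18 (lowest, median, highest) in the sch9 mutant and at 10.96, 11.03 and 11.61 in the wild type, and the ranges overlapped. The difference was 0.21 (SE 0.08, adjusted p = 0.034), positive at 7 of 9 times, with 0.57 at 12 h and -0.16 at 96 h. The call was lost when the array pair at 12, 24, 36, 48, 60, 72 or 84 h was left out (0.16, adjusted p = 0.0582, without 12 h), and with median centring the value was -0.03 (adjusted p = 0.807).

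**Figure D2:**
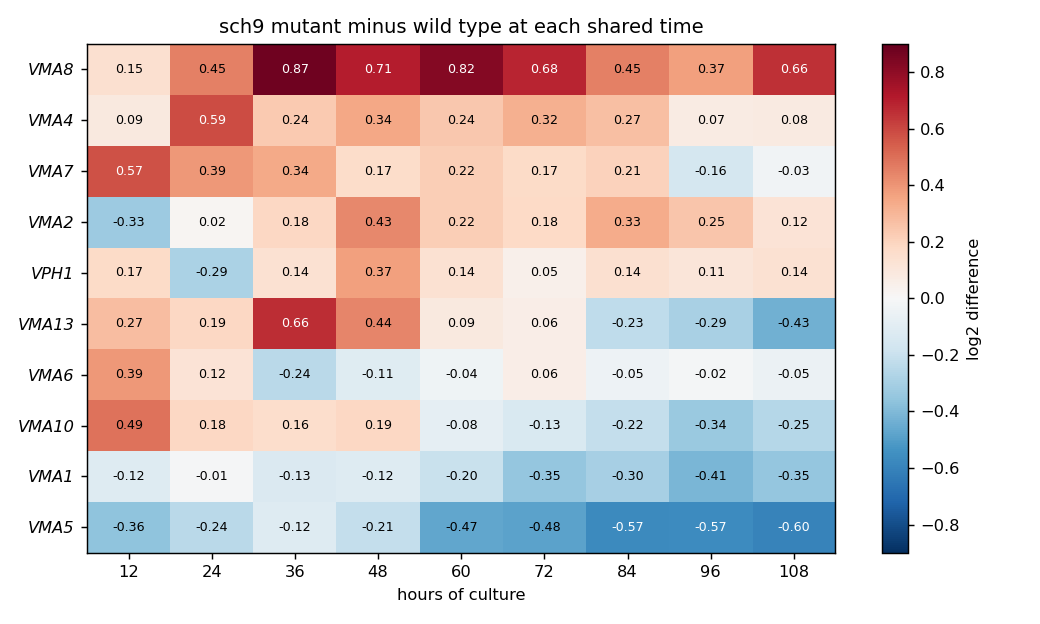
Log2 difference, sch9 mutant minus wild type, of each V-ATPase gene (down the page, by mean difference) at each of the 9 shared times (x axis, hours of culture), from 1 array per strain and time; red is higher and blue lower in the sch9 mutant. VMA8 and VMA4 are positive and VMA1 and VMA5 negative at every time, while VMA10 and VMA13 are positive at the early times and negative at the late ones; with median centring the mean differences of VMA4, VMA7, VMA2, VPH1, VMA13 and VMA6 were below 0.

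The other members were not called. VMA2, the B subunit that binds ATP beside A, differed by 0.16 (SE 0.08, adjusted p = 0.0955, 95% interval -0.01 to 0.32) and was higher in the sch9 mutant at 8 of 9 times. Its levels were 12.16, 12.34 and 12.92 (lowest, median, highest) in the sch9 mutant and 11.92, 12.10 and 13.25 in the wild type. The opposite value came at 12 h, at -0.33, and without that time the difference was 0.22 (adjusted p = 0.0068). The sign also depends on the scaling, since it was -0.03 as deposited and -0.28 (adjusted p = 0.0233) after median centring.

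VPH1 encodes the a subunit that places the pump at the vacuole. It had 12.05, 12.08 and 12.79 (lowest, median, highest) in the sch9 mutant, against 11.71, 11.98 and 12.62 in the wild type. The difference was 0.11 (SE 0.07, adjusted p = 0.183, 95% interval -0.04 to 0.25), higher at 8 of 9 times, with -0.29 at 24 h. It was -0.03 as deposited, -0.29 after median centring (adjusted p = 0.012) and 0.18 with cyclic loess (adjusted p = 0.0376), so neither its sign nor its call was settled. STV1 encodes the alternative a subunit of the Golgi and endosomes. The VPH1 difference minus the STV1 difference averaged 0.04 ± 0.20 (SD, n = 9 times, two-sided exact permutation p = 0.586), with 5 positive and 4 negative times, and it was -0.24 (exact p = 0.0977) in the deposited values. The balance of the alternative a subunits was thus not seen to differ beyond the spread over times.

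VMA6, the d subunit that joins the central stalk to the c ring, differed by 0.01 (SE 0.07, adjusted p = 0.94, 95% interval -0.14 to 0.15). Its levels were 10.76, 10.91 and 11.49 (lowest, median, highest) in the sch9 mutant and 10.75, 10.95 and 11.23 in the wild type, nearly the same span. VMA10, the G subunit of the peripheral stalk, differed by -2e-04 (SE 0.09, adjusted p = 0.999, 95% interval -0.19 to 0.19). VMA13, the H subunit that restrains free V1 from splitting ATP, differed by 0.08 (SE 0.11, adjusted p = 0.523, 95% interval -0.16 to 0.33). For the last pair the mean difference hides a crossing of the strains, described with the time courses below.

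**Figure D3:**
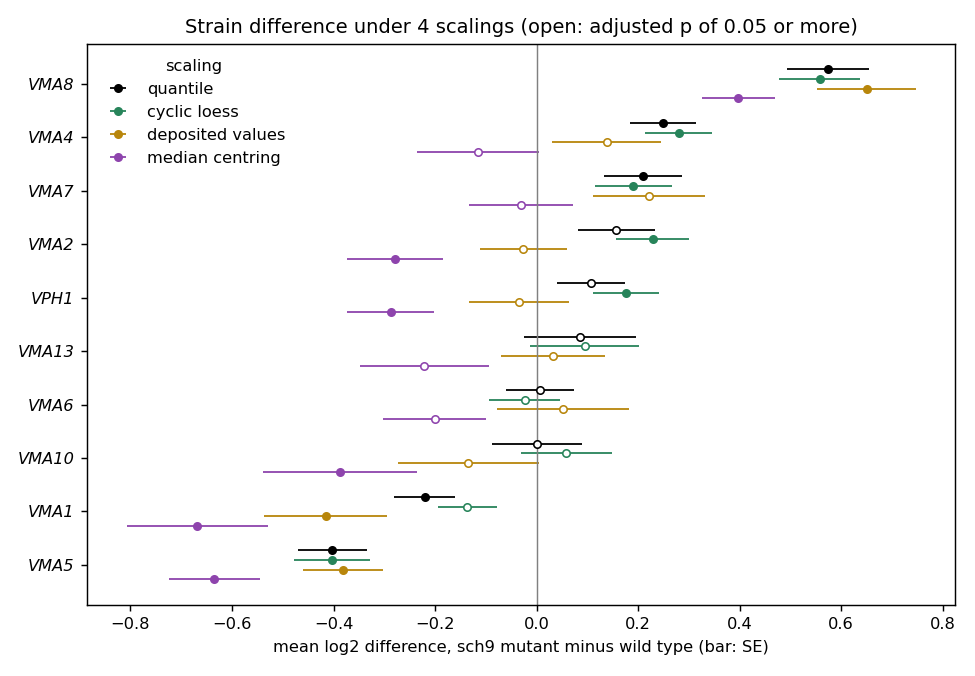
Mean log2 difference, sch9 mutant minus wild type, over 9 shared times (x axis) for each V-ATPase gene under 4 scalings of the arrays; bars are 1 SE of the limma fit and open points have an adjusted p of 0.05 or more. VMA8 is above 0 and VMA5 below 0 with filled points under each scaling, while VMA4, VMA7, VMA2, VPH1, VMA13 and VMA6 lie below 0 with median centring.

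The members are among the brighter genes of the array, with mean levels between percentiles 77.7 and 95.1, and scaling acted on such genes unequally. The median strain difference over all genes was 0.03 with quantile normalization, 0.17 as deposited, -0.09 after median centring and -0.01 with cyclic loess. In the brightest 10% of genes it was -0.03, -0.34, -0.60 and -0.0036 in the same order of scalings. Against that shift, VMA8 stayed positive (0.40 with median centring and 0.65 in the deposited values). VMA5 had -0.63 with median centring and -0.38 in the deposited values.

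The second question was how the pump genes move over the culture in each strain. All 10 members had negative slopes over all times in both strains, as 54.9% of all genes had in the sch9 mutant and 53.3% in the wild type. Their median was -0.18 log2 per day in the sch9 mutant, where the median of all genes was -0.01. In the wild type it was -0.06, where that of all genes was -0.01. In the sch9 mutant 3 members were called falling (VMA7, VMA10 and VMA13), against 4.64% of all genes. Another 2 were called falling in the wild type (VMA2 and VMA8), against 6.46% of all genes; without 12 h their wild-type slopes were -0.07 (adjusted p = 0.0808) and -0.08 (adjusted p = 0.0511), and 24, 72, 84, 96 and 108 h also decided both calls. The mutant call of VMA7 was lost without 96 h, and the calls of VMA10 and VMA13 held without any 1 time. No member was called rising by limma in either strain, and 0 had an unadjusted p under 0.05 in that direction. The 12 h arrays carry much of these slopes, so the trends were also fitted from 24 h on. Without 12 h 9 members had slopes below 0 in the sch9 mutant and 5 in the wild type. Of all genes 51.9% and 47.7% had them.

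From 24 h on the counts of falling members depended on the scaling. With quantile normalization 5 members were called falling in the sch9 mutant (VMA4, VMA7, VMA8, VMA10 and VMA13), against 14.3% of all genes. Of the wild-type slopes 0 were called falling by limma (2 at an unadjusted p under 0.05), against 20.8% of all genes, and 1 (VMA5) was called rising, against 20.8%. In the deposited values 2 members fell in the sch9 mutant (VMA10 and VMA13), against 6.88% of all genes. There 4 fell in the wild type (VMA2, VMA6, VMA7 and VMA8), near the 40.8% of all genes, so the larger count in the wild type is no result about the members. There 0 members were called rising in the wild type by limma (0 at an unadjusted p under 0.05), against 3.91% of all genes. At 36 h and later, with quantile normalization, 3 were called rising in the wild type (VMA1, VMA5 and VMA13), near the 23.9% of all genes. The slope of the sch9 mutant from 24 h on was called below that of the wild type in 6 members (VMA1, VMA4, VMA5, VMA7, VMA10 and VMA13), against 17.2% of all genes. Over all times 1 member (VMA10) had a called slope difference, against 1.74% of all genes. The 6 became 0 with the end-bias score as a covariate, and 1 (VMA13) in the deposited values. In the wild type that score was lowest at 12 h, at 0.80, and highest at 120 h, at 1.44. With it as a covariate 0 of all genes had a called slope difference over all times. From 24 h on all genes were not counted with this covariate. Whether the loss of these calls is particular to the members was thus not tested.

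VMA13 fell step by step in the sch9 mutant. It stood there at 12.27, 11.94, 11.75, 11.63, 11.62, 11.53, 11.25, 11.22 and 11.11 over the 9 times, lower at each time than at the one before. The wild-type levels were 11.99, 11.75, 11.09, 11.19, 11.53, 11.48, 11.48, 11.51 and 11.54 over the same times, with 11.55 at 120 h, so it dipped at 36 and 48 h and then stayed nearly level. The sch9 mutant was the higher strain until 72 h and the lower one from 84 h on. Its slope from 24 h on was -0.23 log2 per day (SE 0.05, adjusted p = 0.00167) in the sch9 mutant and 0.04 (SE 0.04, adjusted p = 0.459) in the wild type. The difference of the slopes was -0.27 (SE 0.06, adjusted p = 0.0038), and -0.34 (adjusted p = 0.000297) at 36 h and later. With the score as a covariate it was -0.17 (adjusted p = 0.395), while the mutant slope kept its call in 13 of 13 alternatives.

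VMA10 followed a similar course. Its mutant levels were 12.78, 12.27, 12.21, 12.07, 11.93, 11.90, 11.76, 11.66 and 11.77 over the 9 times. The wild-type levels were 12.29, 12.08, 12.05, 11.88, 12.01, 12.03, 11.98, 11.99, 12.03 and 11.98 over the 10 times, between 11.88 and 12.08 after the first. The sch9 mutant was higher by 0.49 at 12 h and lower from 60 h on, by 0.34 at 96 h. The slope from 24 h on was -0.17 (SE 0.03, adjusted p = 0.000231) in the sch9 mutant and -0.01 (SE 0.02, adjusted p = 0.754) in the wild type, and their difference was -0.16 (SE 0.04, adjusted p = 0.00288). The mutant fall kept its call in 13 of 13 alternatives. The slope difference lost it as deposited (-0.09, adjusted p = 0.19) and with that score as a covariate (-0.15, adjusted p = 0.203).

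The other called slopes were smaller. VMA7 fell from 24 h on in the sch9 mutant, by 0.13 per day (SE 0.03, adjusted p = 0.00505), with a wild-type slope of 0.01 (adjusted p = 0.717); the mutant slope was -0.09 in the deposited values (adjusted p = 0.136). VMA8 had mutant slopes of -0.14 (SE 0.04, adjusted p = 0.00771) and wild-type slopes of -0.08 (SE 0.03, adjusted p = 0.0511), whose difference, -0.07, did not pass (adjusted p = 0.314); its mutant slope as deposited was -0.09 (adjusted p = 0.19). VMA4 had a mutant slope of -0.09 (adjusted p = 0.0146), a call lost in the deposited values, with median centring, and when 24 or 96 h was left out too. VMA5 had a wild-type slope of 0.09 (adjusted p = 0.0385), which was -0.08 with that score as a covariate and lost its call when 36, 48, 72, 96, 108 or 120 h was left out too. The called slope differences of the remaining members were -0.12 for VMA1 (adjusted p = 0.0157), -0.10 for VMA4 (adjusted p = 0.0315), -0.15 for VMA5 (adjusted p = 0.0353) and -0.14 for VMA7 (adjusted p = 0.0137). Of 13 alternatives 11 kept that call for VMA1, 6 for VMA4, 6 for VMA5 and 10 for VMA7, whose value as deposited was 0.0067 and which also lost it without 96 h. VMA4 lost it when 24, 48, 96 or 108 h was left out and VMA5 when 36, 72, 84, 108 or 120 h was.

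**Figure D4:**
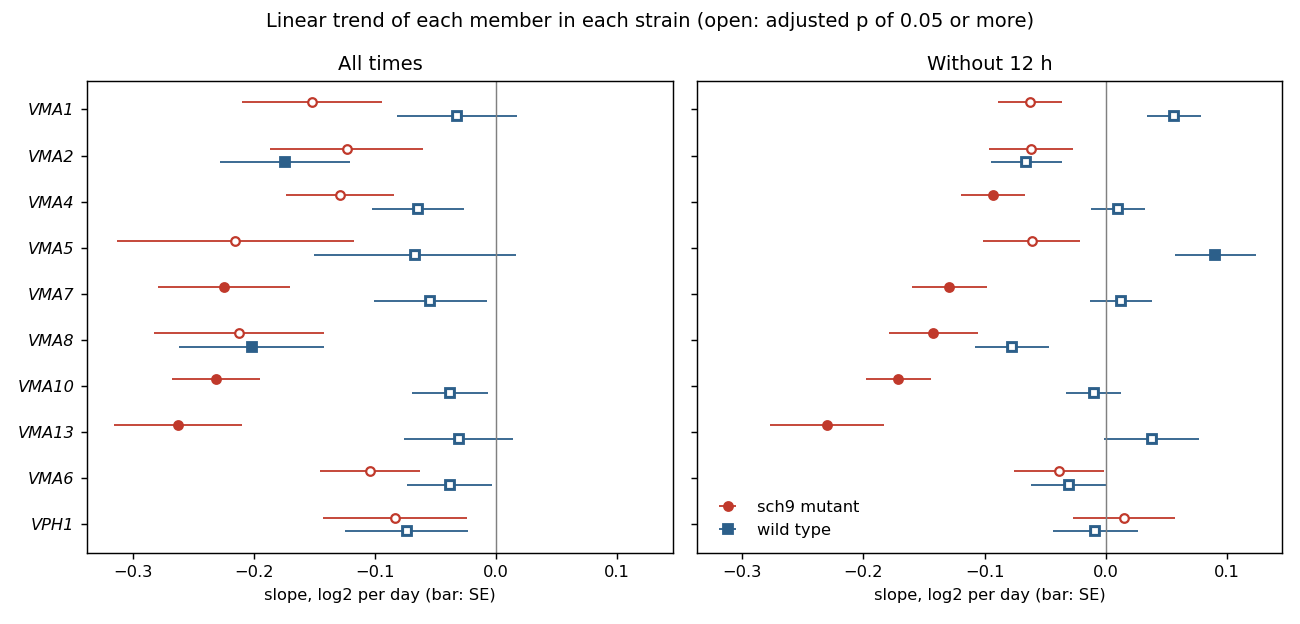
Slope of each V-ATPase gene in log2 per day (x axis) in the sch9 mutant (red circles) and the wild type (blue squares), over all times (left) and without 12 h (right); bars are 1 SE of the limma fit and open points have an adjusted p of 0.05 or more. Without 12 h the mutant slopes of VMA4, VMA7, VMA8, VMA10 and VMA13 are below 0 with filled points, and the only filled wild-type point is VMA5, above 0. The sign of that VMA5 slope turned with the end-bias score as a covariate. In the deposited values 2 members fell in the sch9 mutant (6.88% of all genes) and 4 in the wild type (40.8% of all genes).

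The members moved together over the 19 arrays, largely through 12 h. The 45 pairs of members had a median Pearson correlation of 0.67 (0.30 to 0.98), where all pairs of genes had a median of 0.01. Without the 12 h arrays the median of the 45 pairs was 0.26, and the range ran from -0.74 to 0.93. These points share arrays and scaling, so the values are a description.

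Some V1 genes ran together and others apart from 24 h on, in pairs picked after their values were seen. VMA1 and VMA5, the A and C subunits and the members lower in the sch9 mutant, correlated at 0.98 over 19 arrays and at 0.93 without 12 h. Over the 19 arrays only 1 other gene was more like either of them. Without 12 h VMA5 ranked 16 among the genes most like VMA1, and VMA1 ranked 22 for VMA5. VMA4 and VMA8, the E and D subunits, both higher in the sch9 mutant with quantile normalization (VMA4 turned sign with median centring), correlated at 0.92 and at 0.83 without 12 h. VMA10 and VMA13, the G and H subunits, correlated at 0.86 and at 0.75 without 12 h. In the same ranking without 12 h VMA8 was at 165 for VMA4 and VMA4 at 538 for VMA8. VMA13 was at 72 for VMA10 and VMA10 at 57 for VMA13. Many genes outside the members were thus as alike. Between the first and the second of these pairs the sign turned: VMA5 and VMA8 correlated at 0.30 over all arrays and at -0.74 without 12 h. These correlations pool the arrays of both strains, so the strain differences given above enter them. No correlation was taken within a strain.

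Outside the members, the genes most like their mean standardized profile over the 19 arrays were RVB2 (r = 0.97), DBP5 (0.97), FUS3 (0.96), CLB2 (0.96), PAA1 (0.96), FAR1 (0.95), TRM10 (0.94), GET4 (0.94), RVB1 (0.94) and SSN3 (0.94). Among them RVB1 and RVB2 encode partner ATPases of chromatin remodelling complexes, DBP5 an RNA helicase of message export, FUS3 and FAR1 a kinase and a cell cycle inhibitor of the mating response, and CLB2 a mitotic cyclin. Without 12 h the correlations of these 10 were lower, between 0.53 (FAR1) and 0.83 (PAA1). VMA7 was the member nearest to the mean profile, at 0.95, and VMA6 the farthest, at 0.74.

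The remaining V0 genes included both directions. Of 6 measured, 3 were called higher in the sch9 mutant, where 32.4% of all genes were, 1 was called lower, where 26.8% were, and 2 were not called, with a median difference of 0.17. VMA3, the main c subunit of the ring, differed by 0.42 (adjusted p = 0.0022), with levels of 12.69 to 13.10 in the sch9 mutant and 12.13 to 13.22 in the wild type. VMA11, the c' subunit of the same ring, differed by -0.26 (adjusted p = 0.00844) and was lower at 9 of 9 times, with 11.75 to 12.16 in the sch9 mutant and 11.98 to 12.44 in the wild type. VMA9, the small e subunit, had 0.22 (adjusted p = 0.0124), and VOA1, a V0 assembly factor, had 0.28 (adjusted p = 0.025), a call lost without 60, 72, 84, 96 or 108 h. VMA16, the c'' subunit, had 0.12 (adjusted p = 0.0981) and STV1 0.07 (adjusted p = 0.489). The calls of VMA3, VMA9 and VOA1 were lost in the deposited values (0.12, 0.16 and 0.23) and with the end-bias score as a covariate (0.23, 0.19 and 0.06). With median centring VMA3 (-0.13), VMA9 (-0.09), VOA1 (-0.02), VMA16 (-0.24) and STV1 (-0.05) turned sign, and VMA11 did not. VMA11 and STV1 were also the V0 genes least like the members' profile, with correlations of 0.19 and 0.13.

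Genes whose products assemble V0 in the endoplasmic reticulum shared the 12 h level. All 4 were highest at 12 h in both strains, against 29.1% of all genes, with a median step of 1.18 in the sch9 mutant and 0.72 in the wild type. VPH2 differed by -0.21 (adjusted p = 0.0333) and PKR1 by -0.22 (adjusted p = 0.0215), each lower in the sch9 mutant at 7 of 9 times; in the deposited values they were 0.11 and 5e-04, with the end-bias score as a covariate -0.05 and -0.20, neither called, and both calls were lost without 60, 72, 96 or 108 h. Of all genes 26.8% were called lower. VMA21 (-0.12, adjusted p = 0.123) and VMA22 (0.01, adjusted p = 0.977) were not called. VMA22 had a mutant slope of -0.35 per day over all times (adjusted p = 0.00627), below its wild-type slope of 0.06 by 0.41 (difference -0.41, adjusted p = 0.0322). These slopes include 12 h, where its step was 1.27 in the sch9 mutant and 0.60 in the wild type, and its slopes from 24 h on are not given here. With the end-bias score as a covariate and with every other time 0 of all genes, VMA22 included, had a called slope difference.

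Of 5 measured genes that join V1 to V0 or part them, 3 were called higher in the sch9 mutant, where 32.4% of all genes were. Among them 0 were called lower by limma (0 at an unadjusted p under 0.05), where 26.8% of all genes were, and their median was 0.29. RAV1, the large subunit of the RAVE complex that puts V1 back on V0, differed by 0.37 (adjusted p = 0.00357), with levels of 9.01 to 9.75 in the sch9 mutant and 8.71 to 9.15 in the wild type. SKP1, shared by RAVE and ubiquitin ligases, had 0.29 (adjusted p = 0.038), a call that 8 of 20 alternatives kept. SKP1 had 0.0038 (adjusted p = 0.971) with the end-bias score as a covariate and 0.08 (adjusted p = 0.533) with median centring, and its call was also lost without 48, 60, 72, 84, 96 or 108 h. RAV2, another RAVE subunit, had 0.21 (adjusted p = 0.27), and 0.63 (adjusted p = 0.00116) with that score as a covariate. RTC5, which promotes the parting of V1 from V0, had 0.29 (adjusted p = 0.000935) and was higher at 9 of 9 times, and OXR1, with the same role, had -0.19 (adjusted p = 0.214). At 12 h 0 of these 5 were at their highest in both strains, against 29.1% of all genes and 9 of the 10 members.

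Proton pumps of other membranes were set beside the members. Of 16 genes of the mitochondrial ATP synthase, which runs the opposite reaction, 0 were highest at 12 h in either strain. Of all genes 29.1% were highest then in both strains. The median step of the 16 was -0.49 in the sch9 mutant and -0.57 in the wild type. In the strain comparison 2 were called higher (ATP14, 0.73, adjusted p = 0.000361, and ATP1, 0.16, adjusted p = 0.0195, lost without 108 h), where 32.4% of all genes were, and 1 lower (ATP2, -0.39, adjusted p = 0.000433), where 26.8% were. With median centring ATP14 had 0.26 (adjusted p = 0.106) and lost its call. ATP1 turned sign as deposited (-0.34) and after median centring (-0.59). PMA1, the main proton pump of the plasma membrane, was highest at 12 h in both strains, as 9 members were, with steps of 0.58 in the sch9 mutant and 0.35 in the wild type. Its correlation with the members' profile was 0.61 over the 19 arrays and 0.02 without 12 h. It differed by -0.15 (adjusted p = 0.173), by -0.40 in the deposited values (adjusted p = 0.0131) and by -0.65 after median centring (adjusted p = 0.000168). PMA2, its minor isoform, was higher in the sch9 mutant by 2.76 (adjusted p = 5.56e-05), with levels of 8.74 to 12.71 in the sch9 mutant, against 8.54 to 9.09 in the wild type.

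**Figure D5:**
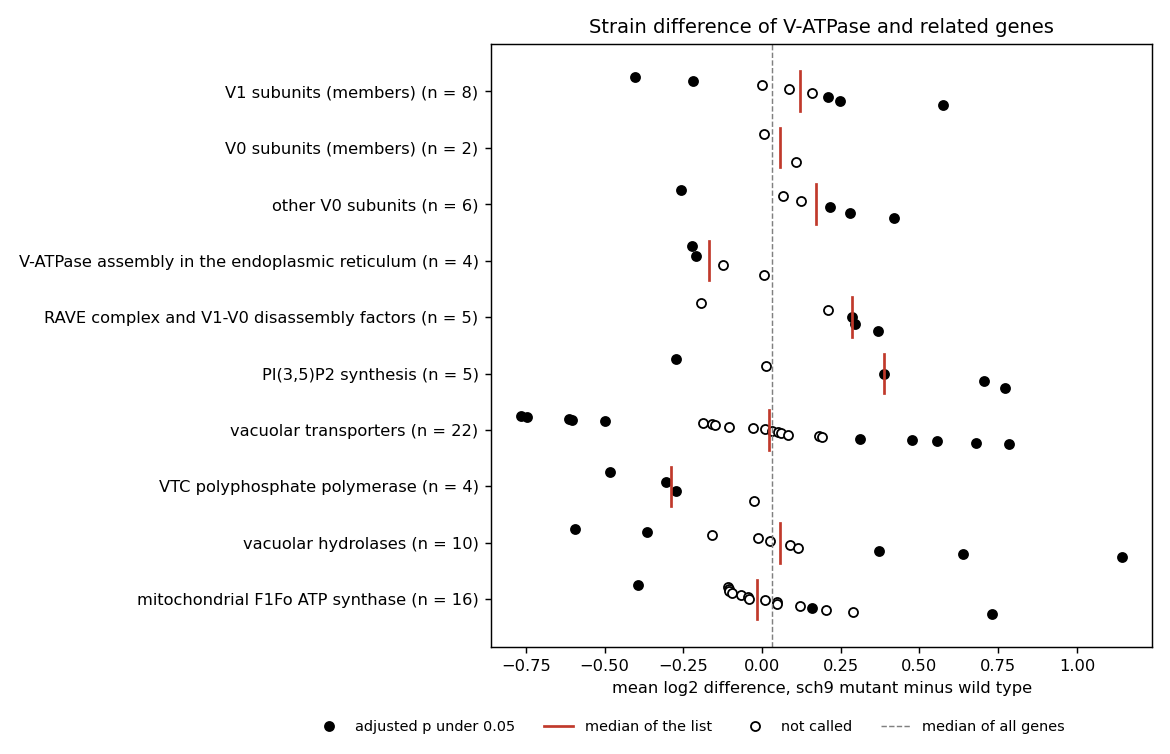
Mean log2 difference, sch9 mutant minus wild type, over 9 shared times (x axis) for the genes of each list (down the page, number measured in brackets), with called genes filled, uncalled genes open, the list median as a red line and the median of all genes, 0.03, dashed. The list of V1 members and that of other V0 subunits hold genes on both sides of 0, and the V0 members VMA6 and VPH1 lie above it. The 5 genes of V1-V0 joining and parting have a median of 0.29 and the assembly genes one of -0.17. With median centring VMA4, VMA7, VMA6, VPH1, VMA3, VMA9 and VOA1 are among the genes below 0.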

How the data were processed

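Total RNA was read on Affymetrix Yeast 2.0 arrays. The authors deposited 1 log2 signal per probe set and array, between 5.76 and 15.02. How these were corrected and normalized is not stated in the labels. In the sch9 mutant columns 52.8% to 90.0% of values shared their final digits at 9 decimals, against 1.55% to 6.38% in the wild-type columns, so the strains' columns were not written alike.

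Of 5814 probe sets 51 controls and 265 without a gene were left out. The remaining 5498 were named by gene identifier through RefSeq (R64), 12 symbols were updated, and the brightest probe set was kept for 47 genes with several, which left 5449 genes. Values were quantile-normalized, because array medians differed.

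limma 3.58.1 (R 4.3.3) fitted a strain term with a block for each time, leaving 8 residual degrees of freedom, and linear trends by strain, leaving 15, with Benjamini-Hochberg adjustment over all genes. Single values were tested with two-sided exact permutation of signs over 9 times, whose smallest p is 0.00391. In simulated data with 5449 genes, 200 of them with a planted change, 4% of planted strain differences of 0.25 were called and 68% of those of 0.5. In the data 1767 genes were called higher and 1458 lower, many more than 200. The adjusted threshold was thus looser there, and the simulated shares do not give the power for strain differences here. For trends of 0.25 per day the shares were 51% in the sch9 mutant and 68.5% in the wild type, and for trend differences of that size 33%.

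The members and gene lists were chosen with earlier results of these data known. Named were all members, all genes of the V0, assembly, RAVE and plasma membrane pump lists, up to 2 genes per direction with the smallest p of each other list, and the 10 genes most like the members. Alternatives were other scalings, array weights, a robust intensity trend, dim probe sets left out, subsets of times, each time left out, log2 of hours, no time blocks and the end-bias score (control 3' minus 5' signal) as a covariate. Fits from 24 h on under other settings, and the scalings of the 12 h count and steps, were added after seeing the data.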

Additional observations from a re-analysis of the deposited data

Results flagged for a closer look

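In 30 sets of values (the levels of each member in each strain and its strain differences) 14 had 1 value far from the others. Of the 14, 13 were at 12 h, the time whose high level is described above. Chance would give about 1 in 20 sets only if the values and the sets were independent. These sets share arrays and a time course, and the strain differences are made from the levels, so that rate does not apply. The count is a description and adds no support to the 12 h step. In the sch9 mutant the 12 h level stood apart for VMA1 (12.95), VMA2 (12.92), VMA5 (12.12), VMA6 (11.49), VMA7 (12.18) and VPH1 (12.79). In the wild type it stood apart for VMA1 (13.07), VMA2 (13.25), VMA4 (12.32), VMA5 (12.48), VMA7 (11.61), VMA8 (11.84) and VMA10 (12.29). The strain difference of VPH1 stood apart at 24 h, at -0.29. The slope of VMA10 over all times differed between the strains by -0.19 log2 per day (adjusted p = 0.0369), a call that 6 of 21 alternatives kept.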

How the results depend on the processing

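For the strain difference of the members 147 of 200 values under alternatives kept direction and side of the threshold, 20 lost the call, 10 gained one and 23 changed sign. The number of arrays, 1 per time and strain, limits every value. The strains were paired by time point, as blocks in the fit and as differences at each time in the permutations, and the labels give no replicate numbers. The causes of the changes below were not tested.

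In the deposited values 1 member was called higher and 3 were highest at 12 h in both strains. Slope differences were called below 0 for 0 members over all times and for 1 from 24 h on. From 24 h on 2 members fell in the sch9 mutant (6.88% of all genes), and in the wild type 4 fell (40.8%) and 0 rose (3.91%). Strain differences changed sign for VMA2 (-0.026), VPH1 (-0.034), VPH2 (0.11), PKR1 (5e-04), ATG18 (0.030), ATP1 (-0.34) and VPH1 minus STV1 (-0.24). That of SCH9 was -0.39 (exact permutation p = 0.109), and the slope difference of VMA7 from 24 h on was 0.0067.

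With median centring 1 member was called higher and 5 lower. In the wild type 1 fell over all times, and from 24 h on 2 rose and 1 fell. The slope difference over all times was below 0 for 2, against 96 of all genes. Strain differences changed sign for VMA2 (-0.28), VMA4 (-0.12), VMA7 (-0.031), VMA13 (-0.22), VMA6 (-0.20), VPH1 (-0.29), VMA3 (-0.13), VMA9 (-0.094), VMA16 (-0.24), STV1 (-0.047), VOA1 (-0.018), ATP1 (-0.59) and VPH1 minus STV1 (-0.24).

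With cyclic loess 5 members were called higher and 1 lower, 0 had a called slope difference over all times and 2 fell from 24 h on in the wild type. VMA10 (0.058), VMA6 (-0.023) and VMA22 (-0.0375) changed sign. With array weights 5 were called higher, 1 rose and 0 fell in the wild type and 4 had a slope difference below 0. VMA13 (-0.0502), VMA6 (-0.0105), VMA22 (-0.27) and RAV2 (-0.082) changed sign. With the end-bias score as a covariate 1 was called lower, 0 fell in the wild type, 0 rose there from 24 h on, and 0 had a slope difference over all times or from 24 h on. VMA10 (0.18), STV1 (-0.0757) and OXR1 (0.14) changed sign, as did the wild-type slope (-0.076) and the slope difference (0.021) of VMA5 from 24 h on.

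Without time blocks 1 was called higher and 0 lower. With every other time 1 was called higher, 1 lower, 0 falling in either strain and 0 with a slope difference, and VMA10 was at 0.0196. From 12 to 72 h 1 was called lower, 0 falling in either strain and 0 with a slope difference, with VMA10 at 0.13 and OXR1 at 0.028. At 36 h and later 3 rose and 0 fell in the wild type and 5 had a slope difference below 0, with VMA6 at -0.065 and VMA22 at -0.16. Without dim probe sets 1 fell in the wild type, against 200 of the 4086 genes left. With log2 of hours 9 fell in the sch9 mutant. With the robust intensity trend 0 had a slope difference, against 85 of all genes below 0.

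When each time was left out in turn, 2 to 5 members fell in the sch9 mutant, 0 to 2 fell and 0 to 1 rose in the wild type, and 0 to 6 had a slope difference below 0, the extremes of 5, 0 falling, 1 rising and 6 all without 12 h. Of all genes 117 to 779 fell in the sch9 mutant, and 178 to 1131 fell and 128 to 1131 rose in the wild type. A slope difference below 0 was called for 38 to 937 of all genes. Strain differences ranged from -0.062 to 0.042 for VMA10 (without 12 and without 96 h), from -0.041 to 0.038 for VMA6 (without 12 and without 36 h), from -0.084 to 0.093 for VMA22 and from -0.0082 to 0.0765 for VPH1 minus STV1. From 24 h on, leaving out a further time gave 0 to 3 rising and 0 to 1 falling members in the wild type.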

Other observations

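Other genes of the vacuole that use or accompany its acidity were read on the same arrays, with lists chosen when earlier results of these data were known. Of 5 genes for PI(3,5)P2, a vacuolar lipid that in yeast stabilizes V1 on V0, 3 were called higher in the sch9 mutant and 1 lower, with a median of 0.39; over all genes 32.4% were called higher and 26.8% lower, the shares to set beside each count here. FAB1, the lipid kinase that makes it, differed by 0.77 (adjusted p = 0.000252), with levels of 9.48 to 10.66 in the sch9 mutant and 9.17 to 9.81 in the wild type. VAC14, its scaffold, differed by 0.39 (adjusted p = 0.000141). ATG18, which binds the lipid, differed by -0.27 (adjusted p = 0.00109), and by 0.03 in the deposited values. FAB1 and VAC14 kept their calls in each alternative run.

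Of 22 vacuolar transporters 5 were called higher and 5 lower in the sch9 mutant, with a median of 0.02, and 12 were not called. CTR2, which exports copper from the vacuole, had 0.78 (adjusted p = 0.00019), and FET5, an iron oxidase of the vacuole membrane, 0.56 (adjusted p = 0.0012). AVT3, which exports amino acids, had -0.50 (adjusted p = 4.55e-05), and VBA2, a permease of basic amino acids, -0.60 (adjusted p = 5.85e-05). Of 4 measured genes of the polyphosphate polymerase 3 were called lower and 0 higher by limma (0 at an unadjusted p under 0.05), with VTC3 at -0.48 (adjusted p = 0.00053) and VTC4 at -0.31 (adjusted p = 0.00326). Both calls were lost in the deposited values, where VTC3 had -0.26 (adjusted p = 0.101) and VTC4 had -0.13 (adjusted p = 0.412). Of 10 vacuolar hydrolases 3 were called higher, among them DAP2 (0.64, adjusted p = 2.55e-05) and AMS1 (1.14, adjusted p = 0.00577), and 2 lower, PHO8 (-0.59, adjusted p = 6.72e-05) and PRC1 (-0.37, adjusted p = 0.000751).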
